A study of Mus musculus with 12 samples.

Results

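*Sox17*-*Erg* samples at 4 weeks were compared with *Sox17*-*Erg* samples at Day 7 in bulk RNAseq. The libraries compared were 4 of the 12 of the series, 2 at each time point, chosen by their labels for treatment and time. All 12 libraries entered the fit and set its estimate of the spread, and the comparison covered 15506 of the 35727 genes in the deposited table. The cells were fibroblasts from pooled hearts of neonatal C57BL/6J mice, infected with pMX retroviruses for *Sox17* and *Erg*, grown in EGM2 medium and labelled as induced endothelial cells (iECs). Control samples, labelled as control at the same time points, entered that estimate and gave the same interval without the factors. The study's isolation of neonatal fibroblasts selected THY1-positive cells with magnetic beads and included a depletion of PECAM1-positive cells, and the retroviral promoter drives the factors in whichever dividing cells were infected. The labels name no sorting of cells before RNA extraction and do not say whether replicates were separate isolations, so p-values measure the spread between these libraries.

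Endothelial cells line blood vessels, hold each other through junctions such as VE-cadherin and lay down a basement membrane of laminins and type IV collagen. Arterial endothelium is marked by Notch signalling, with the ligand Dll4 and the transcription factors Hey1 and Hey2, and by guidance cues such as ephrins and semaphorins. Fibroblasts secrete fibrillar collagens and matrix proteases, and a culture that stops dividing loses the transcripts of DNA replication and mitosis.

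The factors themselves were read first. *Sox17*, an endothelial SOX factor, had 999 and 791 CPM (TMM-normalised read counts scaled to a common library size) at Day 7 and 1036 and 914 CPM at 4 weeks, a log2 change of 0.12 ± 0.35 (SE, n = 2 against 2, adjusted p = 0.895). *Erg*, an ETS factor of endothelium, had 19.4 and 17.1 CPM at Day 7 and 65.2 and 27.7 CPM at 4 weeks, a log2 change of 1.35 ± 0.81 (adjusted p = 0.422). Both 4-week libraries lay above both Day 7 libraries for *Erg*, and the ranges overlapped for *Sox17*. Counts per gene do not separate the retroviral from the endogenous copies. In control samples at Day 7 and 4 weeks, *Sox17* was at no more than 0.0813 CPM and *Erg* at no more than 1.37 CPM.

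Library totals were 36835500 and 22757129 counts at Day 7 and 28943145 and 24987395 counts at 4 weeks, and replicates had a Pearson correlation of 0.975 at both times across genes on the log2 scale, which are not independent replicates. The median log2 change over all genes was 0.00065. The iEC label was checked against its defining markers. *Cdh5*, which encodes VE-cadherin, had 400 and 248 CPM at Day 7 and 496 and 394 CPM at 4 weeks, and at most 8.08 CPM in control samples of these times. Fibroblast markers were also present, with *Pdgfra* at 198 and 612 CPM at Day 7 and at 330 and 335 CPM at 4 weeks. The Day 7 replicates differed in this balance, since the arterial gene *Sema3g* was at 201 CPM in replicate 1 and 65.8 CPM in replicate 2 while the fibroblast factor *Tcf21* was at 48.2 and 174 CPM. The part of this in the results below was not tested. Markers of other lineages ranged from absent to well above *Pecam1*. *Tnnt2*, which encodes cardiac troponin T, had 334 and 419 CPM at Day 7 and 665 and 642 CPM at 4 weeks (adjusted p = 0.180), while *Myh6*, a cardiac myosin heavy chain, had 7.89 to 21.1 CPM. *Msln*, a mesothelial surface protein, had 246 and 170 CPM and then 189 and 123 CPM. The macrophage gene *C1qa*, a complement subunit, had 29.5 and 23.02 CPM and then 4.64 and 34.7 CPM. *Adipoq*, the fat cell hormone adiponectin, was at 0 or 1 count in these 4 libraries, and *Myod1*, a skeletal muscle factor, was at 0 counts in all 4, which allows up to 3 counts each. The part of these other lineages in the results was not tested.

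Between Day 7 and 4 weeks, 178 genes rose and 104 genes fell in *Sox17*-*Erg* samples, with an adjusted p below 0.05 as the threshold in edgeR's quasi-likelihood test. These were 1.15% and 0.671% of the 15506 genes tested, and 2850 genes had an unadjusted p under 0.05. The median log2 change was 1.54 among the genes that rose and -1.29 among those that fell, with 139 and 73 of them past a 2-fold change. The genes that rose started low, with a median of 11.4 CPM at Day 7 and 29.1 CPM at 4 weeks, and those that fell went from a median of 30.9 to 14.3 CPM. In all 282 genes, both libraries of one time point lay above both of the other, which held in one direction for 24.5% and in the other for 23.7% of all genes tested. With the 4 libraries alone, which leaves the spread to be estimated from 2 libraries at each time, 27 genes rose and 9 fell. The counts also depended on each of these 4 libraries. Without Day 7 replicate 1, 29 genes rose and 20 fell, without Day 7 replicate 2, 49 and 28, without 4-week replicate 1, 13 and 7, and without 4-week replicate 2, 49 and 26. No gene among the 282 changed direction in any of these fits, the 4-library fit included. Since the 2 times did not overlap in any of these genes, that outcome was largely fixed beforehand and is no measure of stability.

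**Figure D1:**
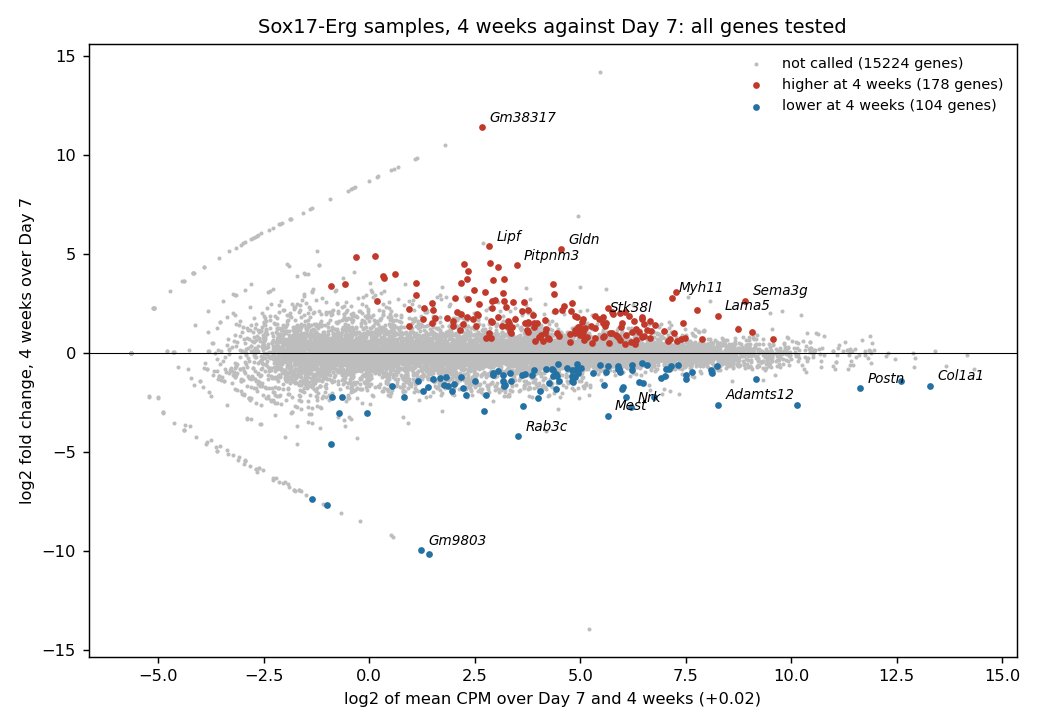
Each point is one of 15506 genes, by the log2 of its mean CPM in the 4 *Sox17*-*Erg* libraries of Day 7 and 4 weeks (horizontal) and its log2 fold change (vertical), with the 178 genes that rose in red and the 104 that fell in blue. Called genes lie at all levels up to *Col1a1*, and the points on the outer diagonals are genes with 0 counts at one time point, whose fitted fold is not a measure of size.

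Among genes with at least 1 CPM at either time, *Gldn*, which encodes the secreted protein gliomedin that clusters sodium channels at nodes of peripheral nerve, was among the 5 genes with the smallest p. It had 1.35 and 1.01 CPM at Day 7 and 46.5 and 44.1 CPM at 4 weeks, a log2 change of 5.24 ± 0.39 (adjusted p = 0.00187). *Pitpnm3*, a membrane-associated phosphatidylinositol transfer protein, went from 1.10 and 0.835 CPM to 22.6 and 20.5 CPM, by 4.46 ± 0.26 (adjusted p = 0.00187). Replicates of both genes lay close together at each time, and in control samples neither passed 0.447 CPM at Day 7 or 4 weeks. *Lipf*, which encodes gastric lipase, had 0.193 and 0.483 CPM at Day 7 and 19.9 and 7.93 CPM at 4 weeks and was at 0 in the 4 control libraries, which allows up to 3 counts each. *Cytip*, which encodes a cytohesin-binding adaptor, went from 0.772 and 0.264 CPM to 10.9 and 8.37 CPM.

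The 15 largest gains also held 2 transcription factors. *Irx1*, an Iroquois homeobox factor, had 0.800 and 0.703 CPM at Day 7 and 16.5 and 14.9 CPM at 4 weeks, a log2 change of 4.37 ± 0.48 (adjusted p = 0.00875). *Tbx15*, a T-box factor of limb and skin mesenchyme, had 0.800 and 0.352 CPM and then 16.4 and 11.5 CPM, a change of 4.54 ± 0.61 (adjusted p = 0.0115). Both genes were at most 1.38 CPM in the control libraries of these times, and control changes were 0.88 for *Irx1* and -1.03 for *Tbx15*, of which neither passed the test.

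The rest of the 15 largest gains had various roles. *Myrip*, which links Rab27-bearing granules to myosin, went from 0.193 and 0.132 CPM to 2.09 and 2.63 CPM, by 3.79 ± 0.60 on the log2 scale (adjusted p = 0.0223). *Lrrtm1*, a synaptic adhesion protein, went from 0.965 and 0.395 CPM to 8.64 and 9.93 CPM. Control libraries held 0 counts of it at Day 7 and 1 and 2 counts at 4 weeks, so no control change is given. *Doc2b*, a calcium sensor of exocytosis, rose from 4 and 0 counts at Day 7 to 47 and 68 counts at 4 weeks. *Cxcl14*, a chemokine, had 3 and 0 counts at Day 7 and 39 and 46 counts at 4 weeks, which is a 30.3-fold difference of summed CPM with a 95% counting interval of 10.01 to 149.7. The remaining named gains were *Igfbpl1*, *Efhd1*, *Paqr9* and *Timp4*, with log2 changes between 3.72 and 4.50. *Timp4* encodes an inhibitor of matrix metalloproteinases and had 0.993 and 1.63 CPM at Day 7 and 15.1 and 19.1 CPM at 4 weeks. The called locus with the largest fitted gain, *Gm38317*, shares 90.4% of its 31-base words with *Itgb5*, so its counts are uncertain. It had 0 counts in both Day 7 libraries but 8.91 and 5.26 CPM at Day 3, and its 475 and 237 counts at 4 weeks were at least 119-fold above a floor of 3 counts per Day 7 library.

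**Figure D2:**
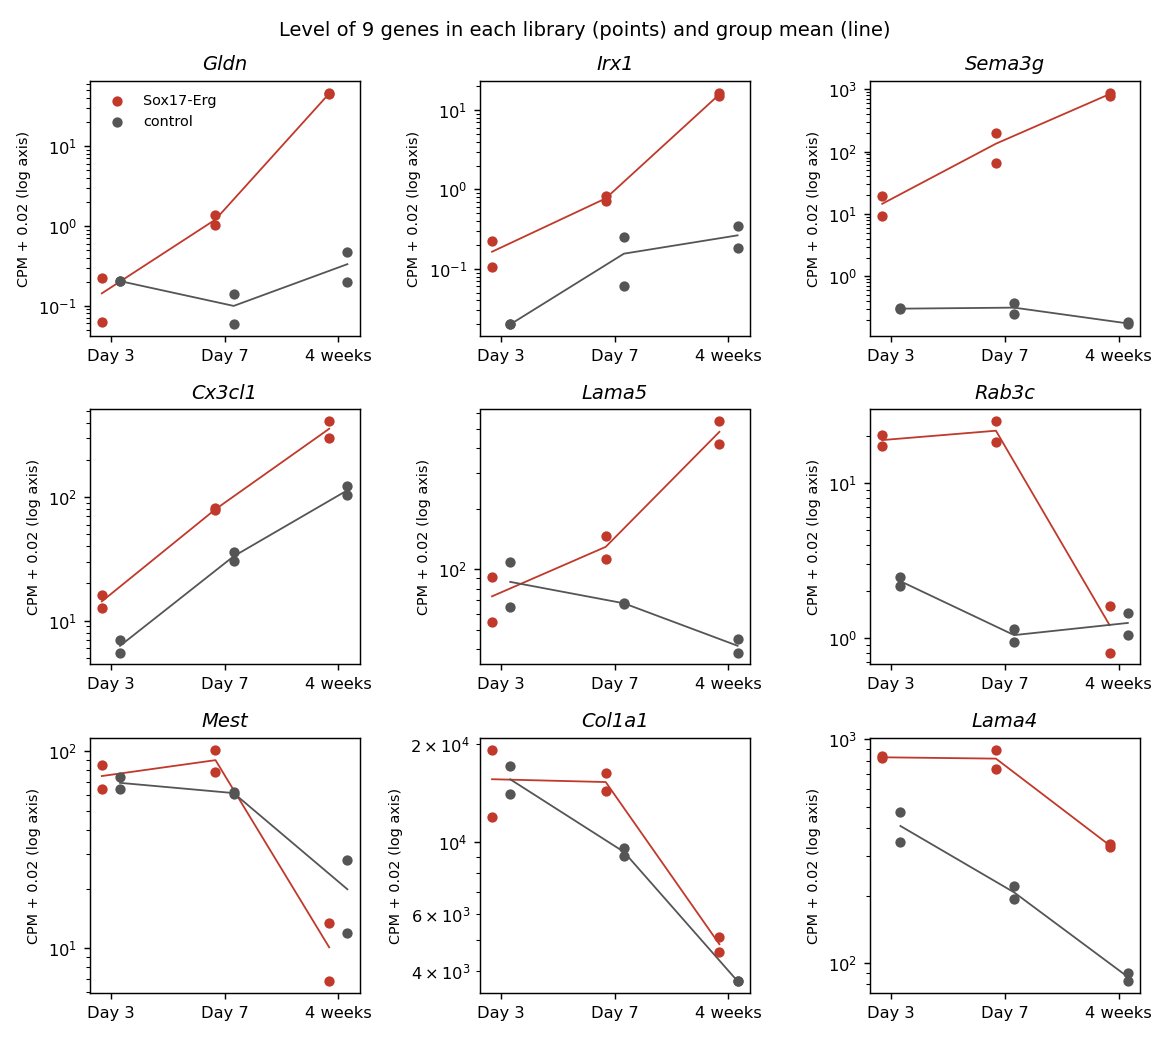
CPM (log axis, with 0.02 added) of 9 genes in each library of *Sox17*-*Erg* (red) and control (grey) samples at Day 3, Day 7 and 4 weeks, with lines through group means. *Gldn*, *Irx1*, *Sema3g* and *Lama5* were higher at 4 weeks in *Sox17*-*Erg* samples, *Cx3cl1* was higher in both treatments, *Rab3c* was lower in *Sox17*-*Erg* samples, and *Lama4*, *Mest* and *Col1a1* were lower at 4 weeks in both, although the control change of *Mest* and *Col1a1* did not pass the test. Of these 9 genes, *Rab3c* alone passed the test of the difference from the control change.

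Among genes with at least 1 CPM at either time and outside loci of uncertain counts, the largest called loss was that of *Rab3c*, a small GTPase of synaptic and secretory vesicles. It had 18.4 and 25.1 CPM at Day 7 and 1.59 and 0.778 CPM at 4 weeks, a log2 change of -4.19 ± 0.34 (adjusted p = 0.00187). Its level at Day 3 was 17.5 and 20.4 CPM, and control libraries at Day 7 and 4 weeks held 0.924 to 1.42 CPM. The 4-week *Sox17*-*Erg* libraries thus lay around the control range, and the earlier ones far above it. *Tmem28*, at 13.1 and 10.02 CPM at Day 7 and at 1.95 and 1.11 CPM at 4 weeks, had a like course and was at no more than 0.0501 CPM in the control libraries.

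Other large losses followed. *Mest*, the imprinted mesoderm-specific transcript, went from 78.3 and 102 CPM to 13.4 and 6.78 CPM, by -3.16 ± 0.42 on the log2 scale (adjusted p = 0.0115). *Nrk*, a kinase of placenta and embryonic muscle, went from 122 and 132 CPM to 23.8 and 14.4 CPM, by -2.74 ± 0.28 (adjusted p = 0.00402). *Slc38a4*, an imprinted amino acid transporter, had 30.1 and 32.2 CPM at Day 3, 1.46 and 1.93 CPM at Day 7 and 0.212 and 0.185 CPM at 4 weeks. It also fell in control samples, by -2.47. *Ret*, a receptor tyrosine kinase for the GDNF family, went from 1.35 and 0.747 CPM to 0.106 and 0.148 CPM. *Itm2a* and *Garem2* fell by 2.70 and 2.22 on the log2 scale. In control samples the changes of *Mest*, *Nrk*, *Ret*, *Itm2a* and *Garem2* were also negative, at -1.61, -0.95, -1.49, -1.04 and -1.54, and did not pass the test, nor did the difference between treatments for any of these 5 genes.

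Some losses concern loci whose counts are uncertain. *Gm9803* and *Gm48499* had 0 counts in both 4-week libraries and share 90.1% and 96.6% of their 31-base words with other genes. *Gm9803* had 171 and 105 counts at Day 7, at least 42.9-fold above a floor of 3 counts per 4-week library. *Gm13015*, with 37.9% of its words shared, and *Fndc3c1*, with 35 and 12 counts at Day 7, were the other called genes at 0 in both 4-week libraries, and their folds against that floor were at least 8.89 and 6.87.

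Type I and type XI collagen fell. Of 25 collagen genes tested, 3 fell and 1 rose, with a median log2 change of -0.68, and 14 had an unadjusted p under 0.05 in the lower direction. Over all 15506 genes tested, 0.671% fell and 1.15% rose, and 1439 were lower at that unadjusted p. *Col1a1*, the main chain of type I collagen, had 16240 and 14317 CPM at Day 7 and 4588 and 5096 CPM at 4 weeks, a log2 change of -1.66 ± 0.27 (adjusted p = 0.0223). *Col1a2*, its partner chain, had 8880 and 9111 CPM and then 3122 and 3574 CPM, and *Col11a1*, a chain that nucleates fibrils, had 1823 and 2046 CPM and then 434 and 189 CPM. *Postn*, the matricellular protein periostin of activated fibroblasts, fell by 1.77 ± 0.26 (adjusted p = 0.0173). In control samples *Postn* fell by 3.82, from 711 and 810 CPM to 60.4 and 47.5 CPM, and the changes of *Col1a1*, *Col1a2* and *Col11a1* were -1.32, -0.94 and -1.84, which did not pass the test. The Day 7 and 4-week libraries did not overlap for any of these 4 genes. *Adamts12*, a secreted metalloproteinase of the ADAMTS family, went from 480 and 584 CPM to 94.7 and 80.0 CPM, by -2.61 ± 0.24 (adjusted p = 0.00298). *Fbn2*, which encodes the fetal microfibril protein fibrillin-2, fell by 2.21, and *Spon2*, a secreted matrix protein, fell by 2.29.

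Not all fibroblast genes moved that way. Of 25 fibroblast identity genes, 3 fell, which are *Col1a1*, *Col1a2* and *Postn* above, and 1 rose, where 0.671% and 1.15% of all genes tested did. The gene that rose was *Pi16*, a marker of adventitial fibroblasts, from 6.70 and 6.85 CPM to 25.2 and 15.3 CPM. In control samples *Pi16* was lower, at 0.614 and 1.04 CPM at Day 7 and 1.05 and 0.691 CPM at 4 weeks. The summed level of this list, in which collagens weigh most, was 36450 and 40706 CPM at Day 7 and 16960 and 17697 CPM at 4 weeks. *Thy1* had 245 and 332 CPM and then 132 and 122 CPM (adjusted p = 0.0552), and *Tcf21* and *Pdgfra* had overlapping ranges. In bulk samples, fewer cells of a type and less RNA per cell cannot be told apart. Of 28 matrix glycoprotein and proteoglycan genes, *Fbn2* alone passed the test, and the median was 0.04.

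Basement membrane chains held calls in both directions. Of 21 basement membrane genes, a list chosen after the values were seen, 2 rose and 1 fell, where 1.15% and 0.671% of all genes tested did. Negative changes were seen in 13, and the median was -0.35. Both 4-week libraries lay below both Day 7 libraries in 11 and above them in 6, where the shares over all genes were 23.7% and 24.5%. *Col4a3*, a chain of specialised basement membranes, rose from 24.2 and 42.4 CPM to 92.0 and 95.7 CPM. Its control level was higher, at 157 and 149 CPM and then 280 and 282.5 CPM. That control change of 0.88 on the log2 scale did not pass. *Col10a1*, best known from hypertrophic cartilage, rose from 5.18 and 4.31 CPM to 46.0 and 28.1 CPM. *Lama5*, the laminin α5 chain, had 146 and 112 CPM at Day 7 and 545 and 419 CPM at 4 weeks, a log2 change of 1.90 ± 0.30 (adjusted p = 0.0220). *Lama4*, the laminin α4 chain, had 899 and 739 CPM and then 341 and 330 CPM, a change of -1.29 ± 0.17 (adjusted p = 0.0115). Mature endothelial basement membranes hold both chains. In control samples *Lama4* also fell, by -1.26, and *Lama5* changed by -0.70, which did not pass the test.

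Arterial genes held 3 of the called gains in the endothelial lists. Of 22 arterial genes, 3 rose and none fell, with a median of 0.62, and 13 had both 4-week libraries above both Day 7 libraries, where the shares over all genes were 1.15% and 24.5%. *Sema3g*, a semaphorin of arterial endothelium, had 19.7 and 9.35 CPM at Day 3, 201 and 65.8 CPM at Day 7 and 785 and 877 CPM at 4 weeks, a log2 change of 2.64 ± 0.48 from Day 7 (adjusted p = 0.0337). Both 4-week libraries stood far above both Day 7 libraries, and controls at Day 7 and 4 weeks were at no more than 0.362 CPM. *Depp1*, a FOXO target, rose by 3.03 ± 0.37 (adjusted p = 0.00903) and *Hey2* by 1.53 ± 0.30 (adjusted p = 0.0400). *Dll4* had 17.0 and 1.36 CPM at Day 7 and 83.4 and 94.9 CPM at 4 weeks, and it did not pass (log2 change 3.25 ± 0.85, adjusted p = 0.0970). Of 19 Notch pathway genes, *Hey2* alone passed, and 18 had a positive log2 change, with a median of 0.30. The other was *Dlk1*, an imprinted Notch ligand relative, at 1.60 and 1.45 CPM and then 0.0354 and 0.111 CPM (adjusted p = 0.0787).

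Of 24 surface and junction genes, 0 passed edgeR's quasi-likelihood test, 4 were higher and 2 lower at an unadjusted p under 0.05, and DESeq2 called 2 higher. Over all 15506 genes, 1411 were higher and 1439 lower at that unadjusted p, and at the shares called over all genes a list of this size would hold few calls or none. *Pecam1*, an adhesion molecule of endothelial junctions, had 57.5 and 33.6 CPM at Day 7 and 117 and 94.6 CPM at 4 weeks (log2 change 1.22 ± 0.37, adjusted p = 0.129). *Kdr*, the main VEGF receptor, had 69.7 and 46.1 CPM and then 36.0 and 25.6 CPM (-0.91 ± 0.40, adjusted p = 0.262), and *Tek*, the angiopoietin receptor, had 9.54 and 10.5 CPM and then 9.91 and 8.26 CPM. The 2 times did not overlap for *Pecam1* and *Kdr*, in opposite directions, and did for *Tek*. Of 22 hemostasis and vascular tone genes, 0 passed by edgeR, 5 were higher and 1 lower at an unadjusted p under 0.05, and DESeq2 called 3 higher and 1 lower. *Vwf*, the von Willebrand factor of endothelial granules, had 4.96 and 6.33 CPM at Day 7 and 67.9 and 47.9 CPM at 4 weeks, a log2 change of 3.36 ± 0.89 (adjusted p = 0.0920). *Vwf* also differed between control replicates, at 0.806 and 11.4 CPM at Day 7.

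Among 20 endothelial transcription factors, *Mef2c* alone passed, from 31.9 and 28.1 CPM to 46.9 and 55.3 CPM. Among 18 venous, capillary and lymphatic genes, *Angpt2* alone passed. Its product, a ligand of the Tek receptor, loosens vessels, and it went from 39.2 and 37.5 CPM to 132 and 103 CPM, by 1.61 ± 0.33 (adjusted p = 0.0446).

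Secreted cues held calls in both directions. Of 30 guidance and adhesion genes, 4 rose, where 1.15% of all genes tested did. The 4 were *Sema3g*, *Efna1*, *Ntn4* and *Ntn1*. *Ntn4*, a netrin of vascular basement membranes, had 43.4 and 34.4 CPM at Day 7 and 159 and 114 CPM at 4 weeks, and *Efna1*, an ephrin, had 5.87 and 4.13 CPM and then 16.6 and 17.1 CPM. Of 34 growth factors and receptors, *Fgfr3*, *Igfbp4* and *Angpt2* rose and none fell, where 1.15% of all genes tested rose and 0.671% fell. *Igfbp4*, which binds insulin-like growth factors, went from 28.7 and 33.3 CPM to 115 and 110 CPM. Control samples held more of it, at 209 and 307 CPM and then 557 and 359 CPM. That control change of 0.83 on the log2 scale did not pass. Of 13 chemokines and cytokines, 2 rose and 2 fell, where 1.15% and 0.671% of all genes tested did. *Cx3cl1*, the membrane-bound chemokine fractalkine of endothelium, had 81.2 and 78.6 CPM at Day 7 and 414 and 304 CPM at 4 weeks, a log2 change of 2.17 ± 0.20 (adjusted p = 0.00298). *Cxcl16*, the other membrane-bound chemokine, rose by 1.05 ± 0.17. *Ccl2* and *Ccl7*, soluble attractants of monocytes, fell by 1.47 ± 0.14 (adjusted p = 0.00308) and 1.91 ± 0.29 (adjusted p = 0.0190). *Ccl2* had 36.1 and 47.5 CPM at Day 7 and 15.7 and 14.5 CPM at 4 weeks. The macrophage list moved beside these genes, with a median of -0.44 and 1 of 19 genes called (*Aif1*, 38 and 23 counts and then 7 and 5 counts). Its summed level was 455 and 771 CPM at Day 7 and 202 and 560 CPM at 4 weeks, and its part in the fall of the chemokines was not tested. Although THY1-positive cells were selected at isolation, macrophage transcripts were present in these cultures. *Csf1r*, a macrophage receptor, had 12.8 CPM in both Day 7 libraries and 2.80 and 16.4 CPM at 4 weeks.

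Some smooth muscle genes rose. *Myh11*, the smooth muscle myosin heavy chain, had 39.6 and 32.7 CPM at Day 7 and 278 and 223 CPM at 4 weeks, a log2 change of 2.79 ± 0.29 (adjusted p = 0.00444), and *Lmod1*, a smooth muscle actin nucleator, rose by 1.30 ± 0.25 (adjusted p = 0.0370). These were 2 of 15 contractile genes tested, where 1.15% of all genes tested rose. *Myh11* rose in control samples as well, by 2.37, from a lower level of 8.33 and 9.28 CPM. *Cnn1* and *Acta2*, further markers of this lineage, did not pass. Of 10 pericyte genes, 0 passed by edgeR, 1 was higher at an unadjusted p under 0.05 and DESeq2 called the same number. *Nox4*, an NADPH oxidase of vessel walls and fibroblasts, rose from 21.6 and 23.6 CPM to 95.7 and 79.9 CPM (adjusted p = 0.00289) and rose by 1.61 in controls.

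**Figure D3:**
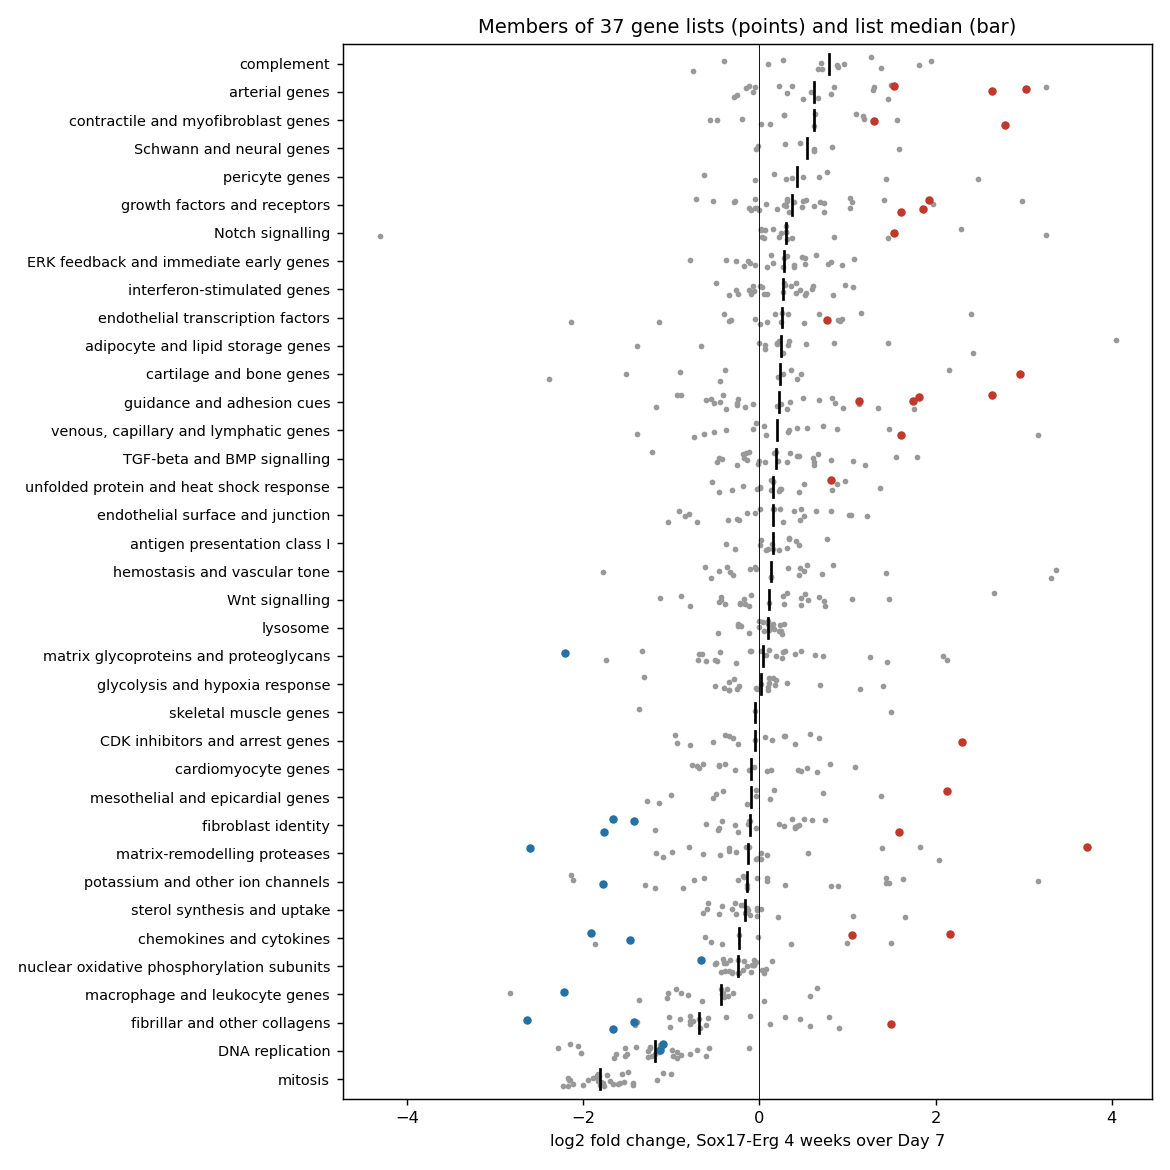
Log2 fold changes of the members of 37 gene lists in *Sox17*-*Erg* samples at 4 weeks over Day 7 (points, red where the gene rose, blue where it fell, grey where it did not pass), with the list median as a bar. Mitosis and DNA replication lie lowest, at medians of -1.81 and -1.18, and the complement and arterial lists highest, at 0.79 and 0.62.

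Cell cycle genes had lower values at 4 weeks, although few of them passed singly. All 32 mitosis genes had negative log2 changes, from -2.23 to -1.01 with a median of -1.81. In 30 of them both 4-week libraries lay below both Day 7 libraries, which held for 23.7% of all genes tested. By edgeR's quasi-likelihood test 0 of these 32 passed, 31 were lower at an unadjusted p under 0.05, and DESeq2 called 13 lower. *Mki67*, a marker of dividing cells, had 287 and 105 CPM at Day 7 and 28.5 and 81.3 CPM at 4 weeks. Replicates of one time point thus lay far apart, although the times did not overlap. Of 31 DNA replication genes, *Gins2* and *Pola2* fell, by 1.09 ± 0.16 and 1.13 ± 0.22, where 0.671% of all genes tested fell. In the lower direction 29 had no overlap, against the same 23.7% over all genes. Over both lists the median gene was at 28.3 and 14.2 CPM at Day 7 and at 4.35 and 10.2 CPM at 4 weeks. In control samples the same median was 19.7 and 7.80 CPM at Day 7 and 3.83 and 2.32 CPM at 4 weeks. *Cdkn2a*, which encodes the cell cycle inhibitors p16 and p19, rose from 20.3 and 13.8 CPM to 95.9 and 73.2 CPM in *Sox17*-*Erg* samples (adjusted p = 0.0235), the 1 call among 17 inhibitor and arrest genes. Control samples went from 22.8 and 12.1 CPM to 76.7 and 41.8 CPM, a log2 change of 1.76 (adjusted p = 0.0857), and the difference between treatments did not pass (adjusted p = 0.953).

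**Figure D4:**
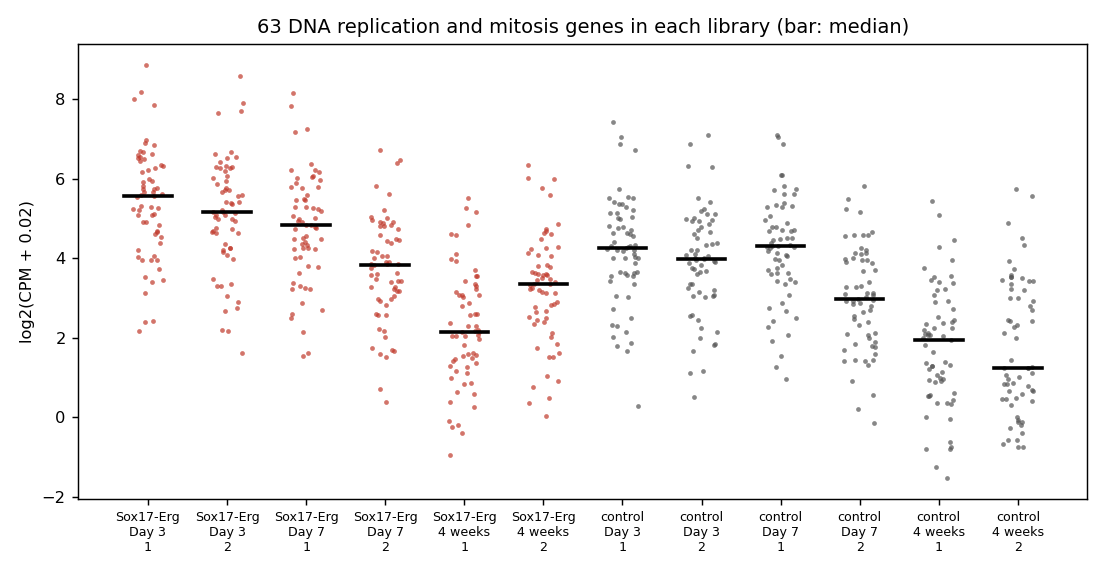
Log2 CPM (with 0.02 added) of 63 DNA replication and mitosis genes in each of the 12 libraries, with the median as a bar, *Sox17*-*Erg* in red and control in grey. In *Sox17*-*Erg* samples both 4-week medians, at 4.35 and 10.2 CPM, lay below both Day 7 medians, and replicates of a time point stood apart.

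The other lists gave few calls. *Cox5a*, a subunit of cytochrome oxidase, fell by 0.67 ± 0.10 (adjusted p = 0.0170), and 25 of the 29 nuclear oxidative phosphorylation genes had negative changes with a median of -0.24. *Dnajb9*, a chaperone of the endoplasmic reticulum, rose by 0.81, *Rarres2*, the chemoattractant chemerin, rose by 2.13, and the potassium channel *Kcnk2* fell by 1.78. The level of *Rarres2* was higher in control samples, at 48.4 and 52.5 CPM at Day 7 and 135 and 91.0 CPM at 4 weeks. Its control change of 1.16 did not pass. Of 14 complement genes, 0 passed by edgeR, 6 were higher at an unadjusted p under 0.05 and DESeq2 called 5. Of 26 interferon-stimulated genes, 0 passed by edgeR, 2 were higher at an unadjusted p under 0.05 and DESeq2 called 1. No gene passed by edgeR in the lists of class I antigen presentation, TGF-beta and BMP, Wnt, ERK feedback, sterol, glycolysis, lysosome, cardiomyocyte, adipocyte, Schwann and skeletal muscle genes. Of the 204 genes tested in these 11 lists, 20 were higher and 7 lower at an unadjusted p under 0.05, and DESeq2 called 10 and 2.

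The same interval in control samples compares other libraries, although both comparisons share the estimate of the spread. There 27 genes rose and 34 fell, 0.174% and 0.219% of the genes tested. Of the 178 genes that rose in *Sox17*-*Erg* samples, 131 (73.6%) also had a positive change in control samples, where 52.0% of all genes did. Of the 104 genes that fell, 89 (85.6%) had a negative change in control samples, where 47.6% of all genes did. The control medians of these genes were 0.36 and -0.64, and since the genes were chosen by their change in *Sox17*-*Erg* samples, the sizes cannot be compared between treatments. In each treatment's own test, 12 genes rose in both, among them *Myh11*, *Nox4* and *Cx3cl1*, and 13 fell in both, among them *Postn*, *Lama4*, *Spon2* and *Slc38a4*. *Cd9* was the 1 gene called in opposite directions.

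**Figure D5:**
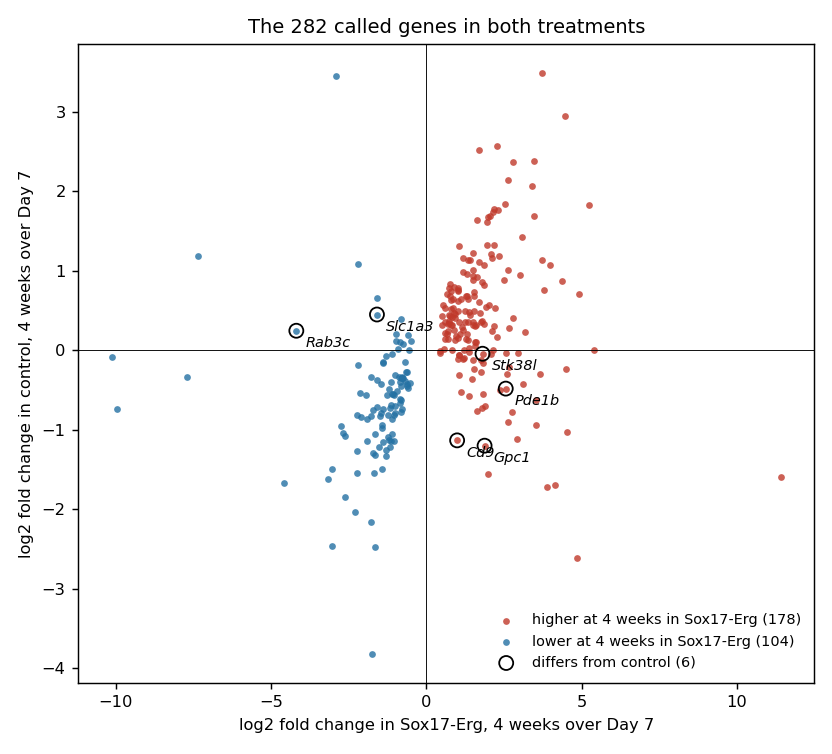
Log2 fold change from Day 7 to 4 weeks in *Sox17*-*Erg* (horizontal) and control samples (vertical) for the 178 genes that rose (red) and the 104 that fell (blue) in *Sox17*-*Erg* samples. Most points lie in the quadrants of equal sign, 131 and 89 genes, and rings mark the 6 genes whose change differed between treatments.

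The difference between treatments in the change from Day 7 to 4 weeks was tested as an interaction in the same edgeR fit. It passed for 6 genes, 4 with a higher change in *Sox17*-*Erg* samples (0.0258% of genes tested) and 2 with a lower one (0.0129%), and 1004 genes had an unadjusted p under 0.05. *Gpc1*, the heparan sulfate proteoglycan glypican-1, had 20.9 and 14.1 CPM at Day 7 and 69.3 and 59.4 CPM at 4 weeks in *Sox17*-*Erg* samples, and 8.18 and 6.11 CPM and then 3.23 and 2.97 CPM in controls. *Cd9*, a tetraspanin of the cell surface, had 105 and 95.6 CPM and then 225 and 172 CPM, while controls went from 46.7 and 39.4 CPM to 19.6 CPM in both libraries. *Cd9* passed the test in both treatments, in opposite directions, and the control change of *Gpc1*, -1.20, did not (adjusted p = 0.0611). *Stk38l*, a kinase of the NDR family that shares 22% of its 31-base words with other genes and is uncertain to that extent, rose from 22.1 and 19.2 CPM to 76.8 and 68.0 CPM and *Pde1b*, a calmodulin-dependent phosphodiesterase, from 8.85 and 7.29 CPM to 51.5 and 43.8 CPM. Their controls changed by -0.04 and -0.48. *Slc1a3*, a glutamate transporter, fell from 13.6 and 14.1 CPM to 4.21 and 4.96 CPM, with controls at 14.1 and 14.6 CPM and then 18.0 and 21.3 CPM, and *Rab3c* is given above. The count fell to 1 gene without Day 7 replicate 1 and to 0 without Day 7 replicate 2 or 4-week replicate 1, where 1019 and 754 genes had an unadjusted p under 0.05. It was 7 without 4-week replicate 2. With DESeq2 it was 139.

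Promoter sequences of 5 of these 6 genes, all but *Gpc1*, are shown because these were the genes whose late change differed from control. They come from RefSeq (GRCm38.p6), run 5′ to 3′ from 250 bases before to 50 bases after the transcription start, and hold in capitals each CCGGAA or its complement TTCCGG, a core of ETS sites, and each ACAAT or its complement ATTGT, a core of SOX sites. Neither word contains the other, and *Pde1b* is shown at the first of its 3 starts.
Cd9 (chr6:125494711-125495010, minus strand): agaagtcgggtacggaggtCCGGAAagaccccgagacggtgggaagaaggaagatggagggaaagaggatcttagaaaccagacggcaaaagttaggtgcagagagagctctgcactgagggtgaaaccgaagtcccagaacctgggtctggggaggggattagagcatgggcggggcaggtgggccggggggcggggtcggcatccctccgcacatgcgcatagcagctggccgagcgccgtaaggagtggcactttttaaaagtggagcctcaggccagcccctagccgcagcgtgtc
Stk38l (chr6:146724680-146724979, plus strand): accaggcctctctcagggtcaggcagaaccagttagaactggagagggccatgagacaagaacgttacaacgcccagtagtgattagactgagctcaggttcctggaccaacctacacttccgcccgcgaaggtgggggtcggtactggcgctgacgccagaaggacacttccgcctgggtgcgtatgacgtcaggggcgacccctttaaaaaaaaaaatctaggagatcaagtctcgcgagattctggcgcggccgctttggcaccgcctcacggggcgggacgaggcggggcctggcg
Pde1b (chr15:103502784-103503083, plus strand): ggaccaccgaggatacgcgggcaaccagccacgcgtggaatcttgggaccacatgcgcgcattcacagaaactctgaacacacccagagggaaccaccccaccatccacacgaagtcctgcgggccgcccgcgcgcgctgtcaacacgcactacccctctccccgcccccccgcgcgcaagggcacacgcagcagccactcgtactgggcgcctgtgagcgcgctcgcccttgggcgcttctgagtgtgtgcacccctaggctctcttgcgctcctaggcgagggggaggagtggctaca
Slc1a3 (chr15:8710758-8711057, minus strand): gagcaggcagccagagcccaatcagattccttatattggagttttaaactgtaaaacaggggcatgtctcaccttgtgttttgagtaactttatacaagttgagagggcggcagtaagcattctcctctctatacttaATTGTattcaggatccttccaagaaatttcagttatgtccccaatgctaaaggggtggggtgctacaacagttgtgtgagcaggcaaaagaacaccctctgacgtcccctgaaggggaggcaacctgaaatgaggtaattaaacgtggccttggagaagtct
Rab3c (chr13:110280157-110280456, minus strand): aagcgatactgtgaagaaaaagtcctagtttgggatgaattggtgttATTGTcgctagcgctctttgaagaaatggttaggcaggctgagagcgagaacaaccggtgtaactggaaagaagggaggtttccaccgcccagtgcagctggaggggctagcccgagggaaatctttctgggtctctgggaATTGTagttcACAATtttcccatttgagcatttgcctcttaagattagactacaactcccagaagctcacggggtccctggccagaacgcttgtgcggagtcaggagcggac
The ETS word occurred 1 time in *Cd9* and in none of the other 4 windows, and the SOX word occurred 3 times in *Rab3c* and 1 time in *Slc1a3*. The second window of *Pde1b*, which is not shown, held 1 SOX word. Among 32851 promoter windows of all genes, 14.9% held CCGGAA and 31.02% held ACAAT on either strand. Of the 175 windows of 137 of the 178 genes that rose, 12.6% held CCGGAA and 19.4% ACAAT, and of the 100 windows of 70 of the 104 genes that fell, 9% and 19% did. Among the 14262 windows of the genes tested these shares were 24.8% and 21.4%. A match is a run of letters and not a shown site.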

How the data were processed

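RNA was measured by stranded mRNA sequencing in 12 libraries of neonatal mouse cardiac fibroblast cultures, of which the 4 *Sox17*-*Erg* libraries at Day 7 and 4 weeks are compared here. The authors deposited estimated counts per gene as whole numbers, and per the labels reads were demultiplexed with bcl2fastq 2.20.0 and quantified with Salmon against mm10. No per-sample column was left unused. Library totals were 19011635 to 41240449 counts, and intervals and floors of 3 counts cover counting error only.

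Genes were filtered with filterByExpr (minimum count 10, minimum total 15) and counts were scaled by TMM. All 12 libraries entered 1 edgeR 4.0.16 quasi-likelihood fit (R 4.3.3) with 1 mean for each of the groups, which left 6 residual degrees of freedom, so groups share an estimate of the spread. Calls had a Benjamini-Hochberg adjusted p under 0.05 over all genes tested, two-sided, with no minimum fold. An exact permutation test of 2 against 2 libraries cannot go below p = 0.33 and was not used. Scripts were tested on simulated data.

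Named genes were *Sox17* and *Erg*, the 15 called genes with the largest fold in each direction with at least 1 CPM at either time, the 5 with the smallest p in each direction, called members and the first 4 members of each gene list, and genes called in the difference from control. The members and lists were chosen with earlier results of these data known. Alternatives were DESeq2 1.42.0, its size factors, other count filters, fewer libraries, a replicate block, a GC-content offset, other thresholds and leaving out each of the 4 *Sox17*-*Erg* libraries of Day 7 and 4 weeks in turn. Control and Day 3 libraries were not left out in turn. Symbols came from GENCODE M21 for 35422 of 35727 genes.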

Additional observations from a re-analysis of the deposited data

Results flagged for a closer look

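For 6 genes the change from Day 7 to 4 weeks differed between *Sox17*-*Erg* and control samples by an interaction term in edgeR's quasi-likelihood test, with 2 libraries in each of the 4 groups. The *Sox17*-*Erg* change minus the control change, on the log2 scale, was 3.07 ± 0.29 (SE) for *Gpc1*, 2.12 ± 0.23 for *Cd9* and 1.85 ± 0.20 for *Stk38l*. It was 3.04 ± 0.36 for *Pde1b*, the 1 gene of the 6 with an adjusted p of 0.0306. It was -2.04 ± 0.20 for *Slc1a3* and -4.43 ± 0.48 for *Rab3c*. The adjusted p of the other 5 genes was 0.0202. Over 10 alternatives the call was kept in 8 for *Gpc1*, 7 for *Slc1a3* and *Rab3c*, 6 for *Cd9* and *Stk38l* and 5 for *Pde1b*, with adjusted p up to 0.105 for *Gpc1* and up to 0.213 for *Pde1b*.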

How the results depend on the processing

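The number of genes past the threshold depended on the processing, and none of the 282 called genes changed sign in an alternative fit that held it (1 gene was not fitted with the 1 CPM filter and 1 with the GC-content offset). The lack of overlap between the times in all 282 largely fixes that sign beforehand. Against 178 higher and 104 lower, the DESeq2 Wald test gave 579 and 464, no low-count filter 723 and 694, the 6 *Sox17*-*Erg* libraries alone 58 and 33, the 4 libraries alone 27 and 9, and an adjusted p under 0.01 gave 19 and 11. Leaving out 1 of the 4 *Sox17*-*Erg* libraries of these times gave 13 to 49 higher and 7 to 28 lower. For the difference from control (4 higher, 2 lower), DESeq2 gave 100 and 39, no filter 173 and 72, the GC-content offset 2 and 2, an adjusted p under 0.01 gave 0 and 0, and leaving out 1 of those 4 gave 0 to 5 higher and 0 to 2 lower. For control samples (61 called), DESeq2 gave 722, no filter 1042 and the GC-content offset 36. Replicate numbers are shared between groups, but no label ties them to a batch, and deviations of the 2 pairs correlated by -0.0541. With a replicate block over 12 libraries 253 genes were higher and 153 lower, with 11 and 3 for the difference from control, and with a replicate block in 6 libraries 99 and 51. Among genes that did not pass, log2 changes without 1 of those 4 ran from -0.015 to 0.30 for *Sox17*, from -0.88 to 0.77 for *Pdgfra* and from -0.76 to 1.11 for *Tcf21*, with the changed sign of all 3 genes seen without Day 7 replicate 2. *Tcf21* was 0.055 with the replicate block over 12 libraries and 0.17 in 6, and 0.10 without 4-week replicate 1. The cause was not tested. With 2 libraries a group, the changes of *Dll4* and *Vwf* did not pass. Replicates lay apart at Day 7 for *Dll4* in *Sox17*-*Erg* samples and for *Vwf* in control samples, and the part of this spread was not tested.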

Other observations

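The lists and genes in this section were chosen after the values were seen and have no test of their own. Of 39 *Hox* genes, which encode factors of body position, 13 passed the filter on low counts, and *Hoxa3* alone of these passed edgeR's test, from 1.10 and 0.527 CPM to 4.67 and 3.48 CPM. All 13 had positive changes, with a median of 2.01 against 0.05 in control samples. In 11 both 4-week libraries lay above both Day 7 libraries, as in 24.5% of all genes tested. Their summed level was low, at 16.5 and 13.0 CPM and then 34.3 and 32.8 CPM. *Prrx2*, a homeobox factor of mesenchyme, rose from 1.54 and 0.615 CPM to 17.0 and 11.3 CPM, and *Six4*, another homeobox factor, rose from 11.2 and 12.4 CPM to 24.8 and 22.7 CPM. Of 19 circadian clock genes, *Nr1d1*, *Nr1d2* and *Rora*, which encode nuclear receptors of the clock, rose by 1.86, 1.35 and 0.92. Over all genes tested, 1.15% rose. The labels give no time of day for the harvest.

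Of 27 imprinted genes, 4 fell and none rose, with a median of -0.83, where 0.671% of all genes tested fell and 1.15% rose. Besides *Mest* and *Slc38a4* the 4 were *Ndn*, which fell from 61.6 and 68.2 CPM to 31.3 and 34.9 CPM, and *Sfmbt2*. Of 16 genes of Rab3 and Rab27 vesicle release, 5 rose and 2 fell, where 1.15% and 0.671% of all genes tested did. *Syp*, the vesicle protein synaptophysin, rose from 1.38 and 0.791 CPM to 10.9 and 9.07 CPM, *Mlph* and *Rab27b* rose by 1.84 and 1.03, and *Rab3ip*, an exchange factor of Rab proteins, fell with *Rab3c*. Of 80 cytosolic ribosomal protein genes, 79 had negative changes with a median of -0.54, against -0.24 in control samples. *Rps20*, *Rpl29* and *Rpl23* passed, and *Rpl29* and *Rpl23* share 44.5% and 24.3% of their 31-base words with other genes, so their counts are uncertain.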
